A study of Mus musculus with 2 samples.

Results

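The canonical genes of the cytosolic ribosome were compared between 2 RNA-seq libraries of cultured mouse pro-B cells. The set was defined by symbol. It holds every protein-coding gene named Rpl, Rps or Rplp with a number and an optional a or x, and Rpsa, and it leaves out Rpl22, Rpl39, Rps4x, Rps27 and Rpl7. The rule found 71 genes among the 36980 gene symbols of the deposited table, 28 of the small subunit and 43 of the large subunit, with 301 listed transcripts. Rps3a1, Fau (RPS30) and Rack1 also encode proteins of the cytosolic ribosome, but their symbols fall outside the rule.

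One library came from Setdb1 Δ/Δ cells, in which the histone H3 lysine 9 methyltransferase gene Setdb1 was deleted, and the other from Setdb1 C/C cells with undeleted alleles. Both genotypes carried a bcl2 transgene. Pro-B cells, the early B cell precursors, were sorted from bone marrow and cultured for 4 days with interleukin 7 at 5 ng/µl, per the labels, and total RNA was depleted of ribosomal RNA before library preparation. The labels give no age, sex or strain, and neither the deleted exons nor what drove the deletion is given in the sources used here. Each genotype has a single library, so the values below compare libraries, have no replicate check and carry no p-value.

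Ribosomal proteins fold around the ribosomal RNAs to form the small subunit, which reads the mRNA, and the large subunit, which joins amino acids. Most of the canonical proteins are present once per ribosome, and they are made from scattered genes that are expressed at very high levels in dividing cells. Their mRNAs are known for a terminal oligopyrimidine (TOP) tract, a C at the first base followed by a run of C and T, through which the kinase mTOR and the RNA-binding protein LARP1 regulate their translation.

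Part of the set had such a start in the annotation. RefSeq start positions (GRCm38.p6) were held for 52 of the 71 genes. Of these, 12 (23.1%) had an annotated start at C followed by at least 4 pyrimidines without a break, against 3.01% of 27025 genes. A run of at least 8 pyrimidines within 15 bases of the start occurred in 44.2% of the ribosomal protein genes and in 13.91% of all genes. The 9 genes whose tract holds at least 8 bases are printed here with 15 bases on each side of the start, to show what the tract looks like, and the capitals mark the tract from its first C. All coordinates are GRCm38.p6.
Rps10 (chr17:27635230-27635259, minus strand): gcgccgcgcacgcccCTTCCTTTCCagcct
Rpl35 (chr2:39005117-39005146, minus strand): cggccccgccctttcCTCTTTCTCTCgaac
Rpl28 (chr7:4792950-4792979, plus strand): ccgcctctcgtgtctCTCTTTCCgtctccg
Rps18 (chr17:33955651-33955680, minus strand): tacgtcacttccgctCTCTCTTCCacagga
Rps6 (chr4:86857353-86857382, minus strand): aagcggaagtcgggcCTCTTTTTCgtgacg
Rpl38 (chr11:114668565-114668594, plus strand): agcggaagcctcgttCTTTCCCCgttctct
Rpl35a (chr16:33056467-33056496, plus strand): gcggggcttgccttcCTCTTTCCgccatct
Rps15a (chr7:118116133-118116162, minus strand): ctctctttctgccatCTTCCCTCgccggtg
Rpl15 (chr14:18270972-18271001, minus strand): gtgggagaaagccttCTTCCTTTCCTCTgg

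For comparison, 4 of the genes with the largest differences between the libraries have no such tract at their annotated start. In these the capitals mark the longest run of C and T in the window, which in Rpl13a begins just after the annotated start and in Rps9 spans it.
Rpl13a (chr7:45128731-45128760, minus strand): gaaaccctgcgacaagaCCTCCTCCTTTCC
Rps9 (chr7:3704026-3704055, plus strand): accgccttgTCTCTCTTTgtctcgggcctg
Rps2 (chr17:24720048-24720077, plus strand): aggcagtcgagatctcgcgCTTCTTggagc
Rpl10 (chrX:74270801-74270830, plus strand): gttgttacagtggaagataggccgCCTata

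The libraries held 193.2 M reads for Δ/Δ and 170.6 M for C/C, as recovered from the RPKM values (reads per kilobase of transcript, scaled to depth). The targeted gene Setdb1 measured 12.6 RPKM in Δ/Δ and 16.97 RPKM in C/C over a whole transcript, which does not measure how complete the deletion was. All 15 pro-B markers reached 1 RPKM in both libraries, with summed levels of 4479.9 RPKM in Δ/Δ and 5469.7 RPKM in C/C. Their median log2 ratio (Δ/Δ over C/C, with 0.5 RPKM added to each) was -0.74, and 11 were below 0. At 2-fold 4 were lower and 1 higher, beside 6.66% and 6.28% of genes with at least 1 RPKM in either library. Cd79a measured 153 RPKM in Δ/Δ and 548 RPKM in C/C, and Vpreb2 894 RPKM in Δ/Δ and 421 RPKM in C/C. Of 22 myeloid markers, 15 reached 1 RPKM in Δ/Δ (summed level 286 RPKM) and 7 in C/C (39.2 RPKM, with Elane and Mpo at 0). Among the 15 myeloid markers with at least 1 RPKM in either library, 13 were higher and 0 lower at 2-fold. Of 16 erythroid and megakaryocyte markers, 8 reached 1 RPKM in Δ/Δ (255 RPKM, with Car1 at 0) and 5 in C/C (78.1 RPKM, with Car1 and Slc4a1 at 0). Over the 8 with at least 1 RPKM in either library, the median level was 8.86 RPKM in Δ/Δ and 1.40 RPKM in C/C. Part of the list thus held most of each sum. Of these 8, 7 were higher and 0 lower at 2-fold, and Hbb-bs measured 34.5 RPKM in Δ/Δ and 3.60 RPKM in C/C. For dendritic cells 7 of 11 markers reached 1 RPKM in Δ/Δ (412 RPKM) and 3 in C/C (395 RPKM, with Clec9a at 0). These sums were largely Irf8, at 229 RPKM in Δ/Δ and 290 RPKM in C/C. Of the 7 dendritic markers with at least 1 RPKM in either library, 5 were higher and 0 lower at 2-fold (median log2 ratio 1.96). For T cells 4 of 14 reached 1 RPKM in each (109 RPKM in Δ/Δ and 121 RPKM in C/C, where Cd3e and Trbc1 were at 0). Among the 5 T cell markers with at least 1 RPKM in either library, 2 were higher and 1 lower at 2-fold. Cd4 measured 2.62 RPKM in Δ/Δ and 0.15 RPKM in C/C, and Thy1 55.7 RPKM in Δ/Δ and 23.7 RPKM in C/C. The lower marker was Lat, at 36.3 RPKM in Δ/Δ and 75.7 RPKM in C/C. For NK cells 0 of 8 reached 1 RPKM in either. The NK sum was 2.48 RPKM in Δ/Δ, with Gzma and Ncr1 at 0, and 2.11 RPKM in C/C, with Gzma, Klrk1 and Ncr1 at 0. Xist measured 23.7 RPKM in Δ/Δ and 0.094 RPKM in C/C, and the Y-linked Ddx3y 0.009 RPKM in Δ/Δ and 10.2 RPKM in C/C, so genotype and sex cannot be told apart. The part of cell makeup or sex in the values below was not tested.

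Ribosomal protein genes were among the most abundant transcripts of both libraries, and the Δ/Δ library held slightly less of most of them. Each gene is represented by its transcript of highest mean RPKM, which is annotated as protein-coding for 54 genes and as another class for 17. The median level over the 71 genes was 1869 RPKM in Δ/Δ and 2096 RPKM in C/C, and the summed level was 143863 RPKM in Δ/Δ and 165472 RPKM in C/C, a ratio of 0.869. Their share of the summed level over all genes was 22.3% in Δ/Δ and 24.5% in C/C. At 1000 RPKM or more stood 67 of the 71 genes in each library, among 98 protein-coding genes in Δ/Δ and 99 in C/C. In such bulk samples fewer cells of a type and less RNA per cell cannot be told apart.

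None of the 71 genes picked by symbol passed the size rule. Fau, which encodes RPS30 but falls outside the symbol rule, passed it downwards as deposited (log2 ratio -1.08) and is described below. A gene was called higher or lower when log2((Δ/Δ + 0.5) / (C/C + 0.5)) of the RPKM values was at least 1 or at most -1. This was met upwards by 0 of 71 genes and downwards by 0 of 71, beside 6.28% higher and 6.66% lower among the 12556 genes with at least 1 RPKM in 1 or both libraries, called measured here. All 71 genes passed that filter in both libraries. The median log2 ratio of the 71 genes was -0.22, with quartiles at -0.33 and -0.05 and a range of -0.62 to 0.61. Over all measured genes the median was -0.09, with quartiles at -0.42 and 0.26. The log2 ratio was below 0 for 55 of the 71 genes (77.5%), against 57.7% of all measured genes, and 59 of the 71 (83.1%) lay between the quartiles of all measured genes. Counting error was small, because each gene had between 41662 and 754982 reads in a library, and the counting interval of the ratio held 1 for Rps15a alone (0.991 to 1.02). The 95% counting intervals had a median half-width of 0.0124 on the log2 scale and at most 0.0247 (Rpl29), and they cover counting error only.

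**Figure D1:**
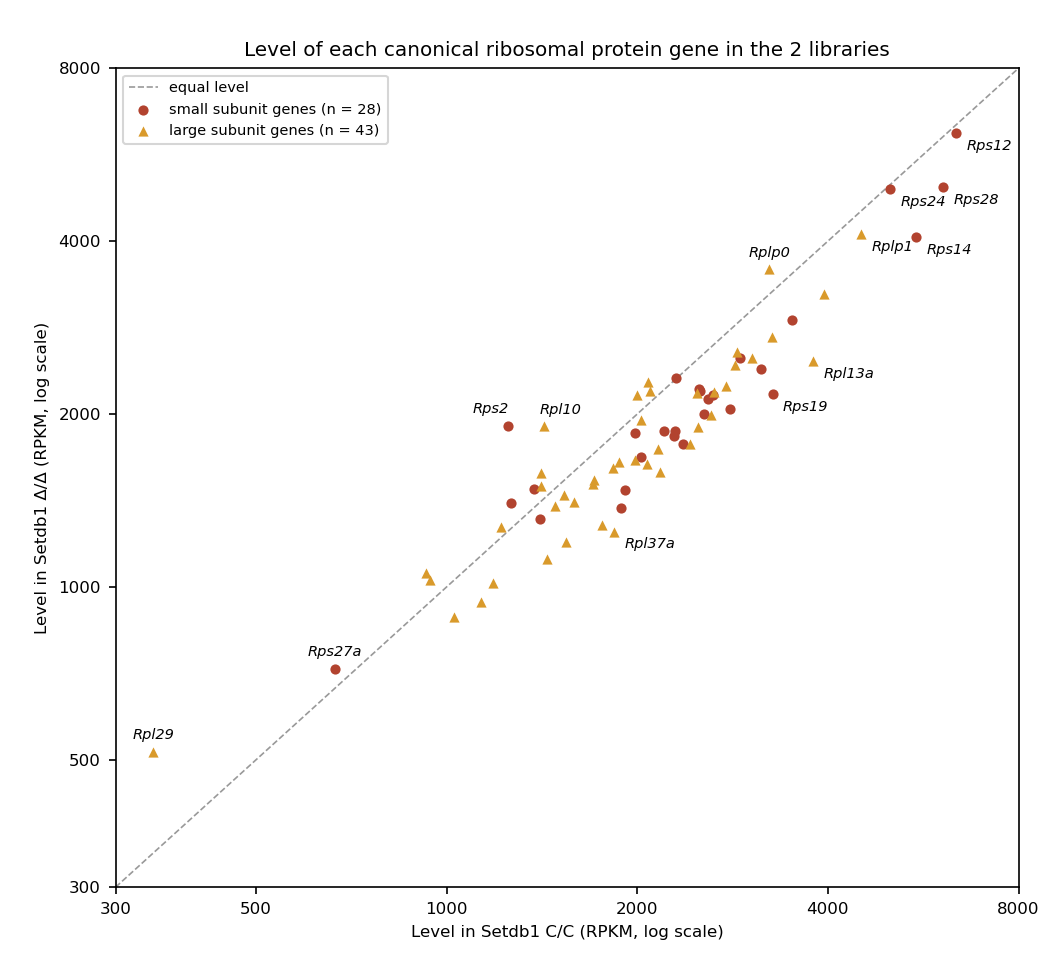
Level of each of the 71 canonical ribosomal protein genes in the Setdb1 Δ/Δ library (vertical axis) against the Setdb1 C/C library (horizontal axis), in RPKM on log axes, with circles for small subunit and triangles for large subunit genes. The dashed line marks equal levels; 55 of the 71 points lie below it, and Rps2, Rpl10 and Rpl29 stand farthest above it.

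The order of levels was largely shared by the libraries, with a rank correlation of 0.91 across the 71 genes, which are not independent replicates. Rps12, a small subunit gene, had the highest level in both, at 6163 RPKM in Δ/Δ and 6369 RPKM in C/C. Rps28, another small subunit gene, was second at 4972 RPKM in Δ/Δ and 6089.9 RPKM in C/C. Rpl29, a large subunit gene whose loss mice survive at reduced size, was the lowest at 516 RPKM in Δ/Δ and 344 RPKM in C/C. Next lowest was Rps27a, which encodes a small subunit protein fused to ubiquitin, at 719.7 RPKM in Δ/Δ and 667 RPKM in C/C. The quartiles of the levels were 1459 and 2222 RPKM in Δ/Δ, and 1539.7 and 2705 RPKM in C/C.

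Among small subunit genes the median log2 ratio was -0.27, and 23 of 28 were below 0. Rps19, mutated in the human disorder Diamond-Blackfan anaemia, measured 2164 RPKM in Δ/Δ and 3272 RPKM in C/C, a ratio of 0.661 (counting interval 0.656 to 0.667). It ranked 24 of the 71 genes by level in Δ/Δ and 9 in C/C. Rps9, which lies near the entry of the mRNA channel, measured 2038 RPKM in Δ/Δ and 2805 RPKM in C/C. Rps3, a protein of the same mRNA entry region, measured 1371 RPKM in Δ/Δ and 1889 RPKM in C/C. These genes, with log2 ratios of -0.60, -0.46 and -0.46, had the lowest ratios of the small subunit.

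Several other small subunit genes are known from disease in humans. Rps14, whose loss of one copy underlies the anaemia of the 5q- syndrome, measured 4068 RPKM in Δ/Δ and 5519.9 RPKM in C/C, a ratio of 0.737. Rps10 had a ratio of 0.752, Rps7 of 0.770 and Rps26 of 0.870, all mutated in families with Diamond-Blackfan anaemia. Rps24, of the same disease group, measured 4931 RPKM in Δ/Δ and 5013 RPKM in C/C, a log2 ratio of -0.02. Rpsa, also known as the laminin receptor precursor, measured 1828 RPKM in Δ/Δ and 2284 RPKM in C/C. Rps6, the substrate of S6 kinase, measured 1687 RPKM in Δ/Δ and 2026 RPKM in C/C, close to the median ratio of its subunit.

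Rps2 stood at the other end. Rps2, a protein at the mRNA entry channel (GRCm38 chromosome 17, 24718116 to 24721929, plus strand), measured 1906 RPKM in Δ/Δ and 1248 RPKM in C/C, a ratio of 1.53 (interval 1.51 to 1.54). Its log2 ratio of 0.61 was the highest of the 71 genes and short of the size rule. The representative transcript is annotated as a retained intron. The most abundant protein-coding transcript of Rps2 measured 1737 RPKM in Δ/Δ and 1260.1 RPKM in C/C, a log2 ratio of 0.46. By level Rps2 ranked 32 in Δ/Δ and 63 in C/C. The remaining small subunit genes above 0 were Rps13 (log2 ratio 0.15), Rps27a (0.11), Rps16 (0.11) and Rps15a (0.00, within its counting error). Other protein-coding transcripts of Rps15a ran as low as -0.10.

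Among large subunit genes the median log2 ratio was -0.19, and 32 of 43 were below 0. Rpl13a, which in human cells also leaves the ribosome to repress selected mRNAs, measured 2471 RPKM in Δ/Δ and 3786 RPKM in C/C. Its ratio of 0.653 (interval 0.649 to 0.656) was the lowest of all 71 genes. The gene lies on GRCm38 chromosome 7 at 45125558 to 45128761 on the minus strand. Rpl37a measured 1249 RPKM in Δ/Δ and 1836 RPKM in C/C. Rpl41, which encodes one of the shortest known proteins, measured 3240.5 RPKM in Δ/Δ and 3947 RPKM in C/C. Rpl38, known in mice for its part in the translation of Hox mRNAs, measured 2178 RPKM in Δ/Δ and 2485 RPKM in C/C. Rpl10a measured 939.5 RPKM in Δ/Δ and 1133 RPKM in C/C. The ratio was 0.863 for Rpl24 and 0.941 for Rpl35a, a further Diamond-Blackfan gene of humans.

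Rpl5 and Rpl11 form a particle with 5S rRNA that, outside the ribosome, binds MDM2 and releases p53. Rpl5 measured 1535 RPKM in Δ/Δ and 1709 RPKM in C/C (log2 ratio -0.16), and Rpl11 measured 1736 RPKM in Δ/Δ and 2156 RPKM in C/C (-0.31). The P stalk, which recruits and activates the translation factor GTPases, is built from Rplp0, Rplp1 and Rplp2. Rplp0, its base, measured 3576 RPKM in Δ/Δ and 3232 RPKM in C/C, whereas Rplp1 measured 4118 RPKM in Δ/Δ and 4516 RPKM in C/C, and Rplp2 2561 RPKM in Δ/Δ and 2877 RPKM in C/C. The base of the stalk was above its C/C level and both arm proteins were below it, by log2 ratios of 0.15, -0.13 and -0.17. After centring within GC intervals all of them were above 0, at 0.42 for Rplp0, 0.14 for Rplp1 and 0.10 for Rplp2.

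The highest ratios of the large subunit belonged to Rpl29 and Rpl10. Rpl29 measured 516 RPKM in Δ/Δ against 344 RPKM in C/C, a ratio of 1.501 (interval 1.48 to 1.53). Rpl10, whose insertion is a late step of large subunit maturation, measured 1903 RPKM in Δ/Δ and 1427 RPKM in C/C, a ratio of 1.33 (interval 1.32 to 1.35). Rpl10 lies on chromosome X at 74270812 to 74273135 on the plus strand. Rpl36a, the other X-linked gene of the set, measured 2195 RPKM in Δ/Δ and 2096 RPKM in C/C. The X-linked ribosomal protein genes outside the set were on either side of 0, with Rpl39 at 1209.6 RPKM in Δ/Δ and 1030.1 RPKM in C/C, and Rps4x at 2802 RPKM in Δ/Δ and 3007 RPKM in C/C. All 329 measured protein-coding genes of chromosome X had a median log2 ratio of -0.04. Rpl31 (0.19), Rpl30 (0.16), Rpl7a (0.13), Rpl15 (0.13), Rpl23 (0.11), Rpl3 (0.09) and Rpl27 (0.06) were the other large subunit genes above 0, beside Rplp0 and Rpl36a. The Rpl7a value is that of a processed transcript, and its protein-coding transcript had 0.01.

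With a milder limit of 1.5-fold on the same scale, 2 of the 71 genes were higher (Rps2 and Rpl29) and 2 lower (Rpl13a and Rps19). Among all measured genes 12.6% were higher and 16.7% lower at that limit. The lower calls ended after centring on all measured genes, with log2 ratios of -0.52 for Rpl13a and -0.50 for Rps19, and likewise at either common RPKM sum and after centring within GC intervals. The Rps2 call ended with its protein-coding transcript (0.46). The Rpl29 call ended with its longest protein-coding transcript (0.57), and with 1 RPKM added to each value in place of 0.5 (0.5844). As deposited, Rpl29 passed the limit by a margin smaller than its counting error, with a log2 ratio of 0.5851 against a limit that corresponds to a ratio of 1.5.

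The signs of these small differences depend in part on the scale of the columns. After centring on the median of all measured genes, 51 of 71 ribosomal protein genes were below 0 and their median was -0.12. After scaling both columns to a common RPKM sum, 52 were below 0 and the median was -0.15. Of the 30 genes followed through 12 alternatives, 24 kept the sign of their log2 ratio in each. Rps12 and Rps24 were above 0 after centring on all measured genes (0.05 and 0.07) and at a common sum (0.02 and 0.04). Rpl10a, Rpl38, Rplp1 and Rplp2 were above 0 only after centring within GC intervals (0.0002, 0.08, 0.14 and 0.10).

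The ratio of the libraries also moved with the base composition of the transcripts. Over 10750 measured protein-coding genes the median log2 ratio was 0.02 at a GC content over 45% and up to 50%, -0.14 from 50% to 55%, -0.27 from 55% to 60% and -0.40 above 60%, with a rank correlation of -0.40. The 71 ribosomal protein genes went the same way. Their medians were -0.14 for 20 genes, -0.21 for 29 genes, -0.30 for 20 genes and -0.38 for 2 genes in the same intervals, with a rank correlation of -0.32, which describes genes that share the 2 libraries. Rps2 at 54.95% GC and Rpl29 at 57.2% stood above the median of their interval, and Rpl37a at 47.1% and Rpl13a at 53.6% stood below it. Taking from each gene the median of measured protein-coding genes in its GC interval left 46 of 71 below 0 and a median of -0.07. The part of GC content in the differences was not tested otherwise.

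**Figure D2:**
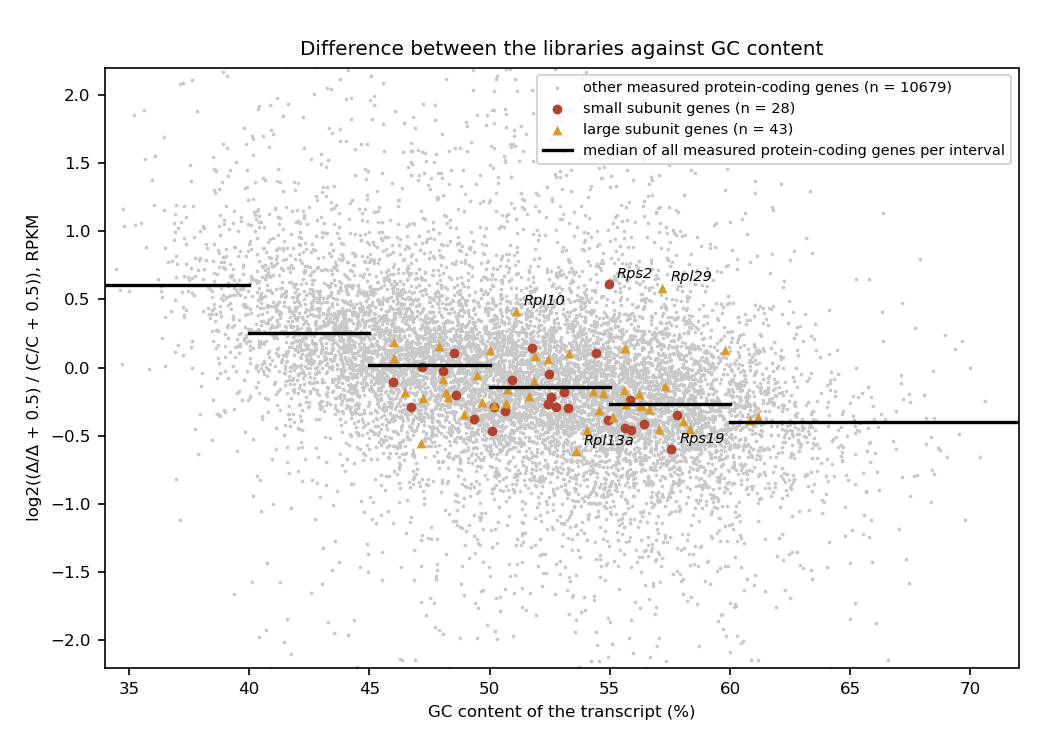
The log2 ratio of RPKM (Δ/Δ over C/C, with 0.5 RPKM added to each) against the GC content of each gene's transcript. Grey points are other measured protein-coding genes (195 of 10679 lie outside the axes), red circles small subunit genes, orange triangles large subunit genes, and black lines the medians of measured protein-coding genes per GC interval. The lines step down from left to right, and 46 of 71 ribosomal protein genes lie below them, with Rps2, Rpl29 and Rpl10 well above.

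Transcripts of the same gene mostly gave like ratios. The 301 listed transcripts include 155 protein-coding forms, 101 retained introns, 38 processed transcripts and 7 marked for nonsense-mediated decay, and 299 reached 1 RPKM. Transcripts of a gene share exons and reads, so their values are not independent. The median log2 ratio was -0.25 for protein-coding forms, -0.25 for retained introns, -0.26 for processed transcripts and -0.31 for the decay class, and no transcript passed the size rule. Within the 50 genes with more than 1 such transcript, the gap between the highest and the lowest log2 ratio had a median of 0.10. It reached 0.97 in Rpl23, whose transcripts ran from -0.52 to 0.45. In Rpl30 the ratio differed between forms, since the most abundant retained intron measured 658 RPKM in Δ/Δ and 386 RPKM in C/C (log2 ratio 0.77), while the most abundant protein-coding form measured 1577 RPKM in Δ/Δ and 1412 RPKM in C/C (0.16). In Rps2 the retained introns ran from 0.22 to 0.89. Over 37 genes with both forms, the retained intron minus the protein-coding form had a median of 0.00 and was above 0 in 20.

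**Figure D3:**
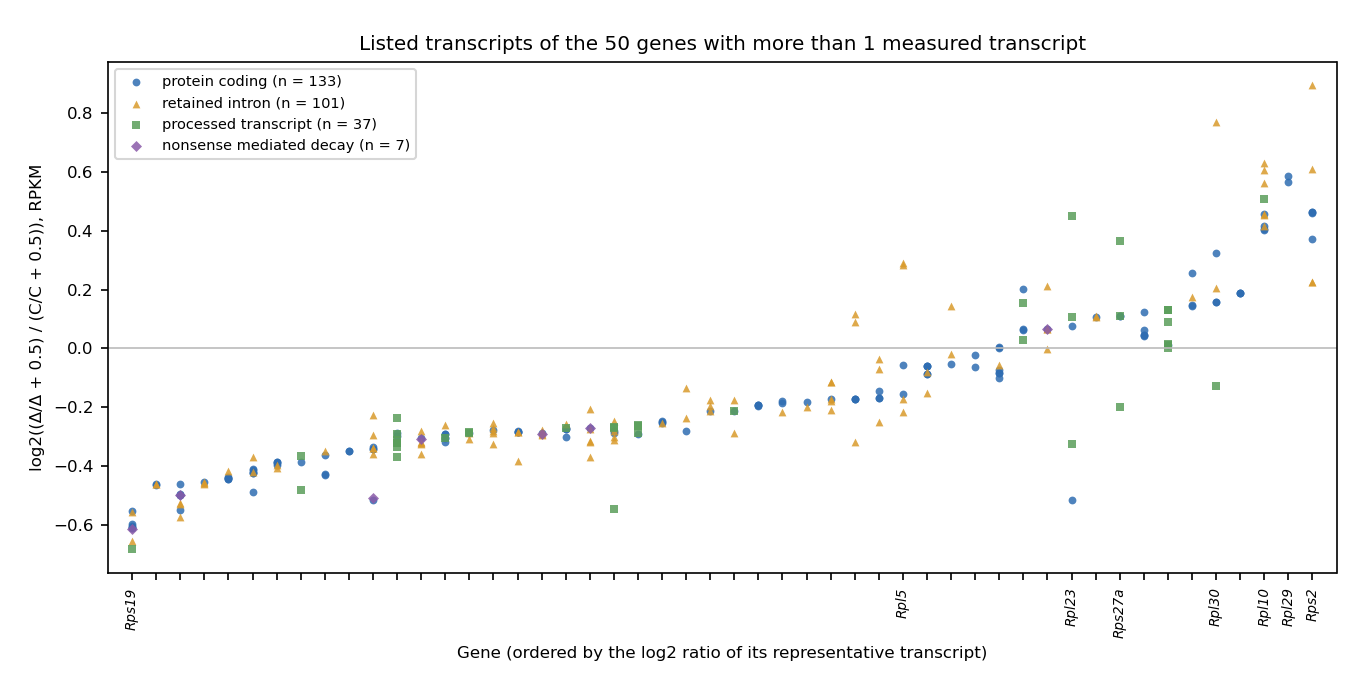
Log2 ratio (Δ/Δ over C/C, with 0.5 RPKM added to each) of 278 transcripts of the 50 canonical ribosomal protein genes with more than 1 transcript at 1 RPKM or above. Columns are genes ordered by the ratio of their representative transcript, with 8 of them named, and colours and shapes give the annotated transcript class. Most columns are tight, while Rpl23, Rpl30, Rps2 and Rps27a spread widely.

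Many of these genes carry small nucleolar RNA genes, guides of rRNA modification, in their introns. In the annotation 28 of the 71 hold 55 such genes on the same strand, among them Rpl13a with 4 and Rps2 with Snora64. The median log2 ratio was -0.18 for the 28 hosts and -0.26 for the other 43 genes. Retained-intron transcripts with a whole small nucleolar RNA gene inside an exon (14 transcripts) had a median of -0.20, and those without (87) had -0.25.

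Ribosomal protein genes are known for processed pseudogenes, inserted copies whose reads can be confused with those of the parent. The table listed 235 pseudogenes named after 52 of the 71 genes. The median log2 ratio was -0.18 for those 52 genes and -0.29 for the 19 genes without a named copy. Including copies of the genes left out by the rule, 41 of 239 such pseudogenes reached 1 RPKM, with a summed level of 381 RPKM in Δ/Δ and 736 RPKM in C/C. Their median log2 ratio was -0.64 and 38 were below 0, while the 195 other measured processed pseudogenes had a median of -0.44. By the size rule 2 of the 41 were higher and 4 lower. Of the 195 other measured processed pseudogenes 11 were higher and 44 lower, and of all measured genes 6.28% were higher and 6.66% lower. Rpl3-ps1 had the lowest log2 ratio of the 41, with 20.2 RPKM in Δ/Δ and 147 RPKM in C/C. Rpl12-ps2 had the highest, with 4.29 RPKM in Δ/Δ and 0 in C/C. Both were chosen after their values were seen, and reads of such copies are uncertain.

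The ratios were also split by the letters around the start, as a description. The 12 genes with C and at least 4 pyrimidines at the annotated start had a median log2 ratio of -0.20, and the other 40 with a RefSeq start had -0.21. CCGGAAG, a core of ETS factor sites, was found on either strand within 250 bases before to 50 bases after a start in 42.3% of the 52 genes and in 9.93% of all genes. The median log2 ratio was -0.23 for the 22 genes with it and -0.17 for the 30 without. The YY1 core AAGATGG, whose first letters can overlap with the last letters of the ETS core, occurred on either strand in 13.5% of the 52 and in 7.28% of all genes, and 2 of the 52 held both. Genes with the YY1 core had a median log2 ratio of -0.09 (7 genes), and those without had -0.22 (45 genes). Matches describe these windows and are not shown to be bound.

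Other lists of the translation machinery were measured beside the ribosomal proteins, and they share the same 2 libraries. Of 9 cytosolic ribosome genes outside the symbol rule 8 were below 0, with a median log2 ratio of -0.23. Fau, which encodes RPS30 fused to a ubiquitin-like protein, was the one that passed the size rule, with 1175 RPKM in Δ/Δ and 2488 RPKM in C/C, a ratio of 0.472. Its log2 ratio of -1.08 was -0.99 after centring on all measured genes, short of the rule. Rps3a1 measured 1701 RPKM in Δ/Δ and 2292 RPKM in C/C, and Rack1, the ribosome's scaffold for signalling kinases, 2398 RPKM in Δ/Δ and 3074 RPKM in C/C.

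Of 61 measured ribosome assembly and rRNA processing factors 2 were higher and 0 lower by the size rule. This share of higher genes is below the 6.28% of all measured genes. At 1.5-fold 16 of the 61 were higher and 0 lower, beside 12.6% higher and 16.7% lower among all measured genes. The median log2 ratio of these factors was 0.34, and 8 of the 61 were below 0. Npm1, given below with the TOP mRNAs, is also on this list and passed the size rule after centring (1.08). Nop58, a core protein of box C/D small nucleolar particles, measured 84.7 RPKM in Δ/Δ and 39.2 RPKM in C/C, and the nucleolar GTPase gene Gnl3 71.6 RPKM in Δ/Δ and 33.5 RPKM in C/C. Bysl had 18.8 RPKM in Δ/Δ and 24.7 RPKM in C/C, and Emg1 168 RPKM in Δ/Δ and 212 RPKM in C/C. The median GC content of these transcripts was 48.8%, against 52.4% for the 71 ribosomal protein genes. After centring within GC intervals, the medians were 0.39 for the assembly factors and -0.07 for the ribosomal protein genes.

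The 33 initiation factors had a median of 0.12 (0.27 with the longest protein-coding transcripts), with 1 higher (Eif2s3x, X-linked, at 159 RPKM in Δ/Δ and 69.1 RPKM in C/C) and 0 lower. The 12 elongation and termination factors had a median of 0.11 (-0.02 with a filter of 100 RPKM and 0.28 after GC centring), with 1 higher, the ribosome recycling factor Abce1 (55.2 RPKM in Δ/Δ and 25.7 RPKM in C/C), and 0 lower. The termination factor gene Gspt1 measured 36.5 RPKM in Δ/Δ and 18.8 RPKM in C/C, past the rule after centring (log2 ratio 1.03). Eef2, the translocation factor, stood at the low end with 1887 RPKM in Δ/Δ and 2607 RPKM in C/C. Among 19 other mRNAs known for a TOP tract the median was -0.02, and 0.07 after centring on all measured genes. The non-coding host gene Gas5 was higher (854 RPKM in Δ/Δ and 419.7 RPKM in C/C), and Npm1, the nucleolar protein nucleophosmin, measured 1611 RPKM in Δ/Δ and 812 RPKM in C/C, short of the rule by its log2 ratio of 0.99 and past it after centring (1.08). Several of these TOP mRNAs also belong to the factor lists.

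RNA polymerase I and its factors had a median of 0.10 over 20 genes, with 1 higher and 0 lower by the size rule. The higher gene was the shared polymerase subunit gene Polr2k (36.0 RPKM in Δ/Δ and 9.38 RPKM in C/C). With a filter of 100 RPKM the value was -0.33, which is the log2 ratio of Ubtf alone (89.8 RPKM in Δ/Δ and 113 RPKM in C/C). The list of MYC, mTOR and TOP mRNA regulators had a median of -0.06 over 22 measured genes, which was 0.04 after centring. Rheb, the GTPase that activates mTOR, was higher (34.7 RPKM in Δ/Δ and 14.9 RPKM in C/C), and Mycn measured 5.27 RPKM in Δ/Δ and 10.2 RPKM in C/C. The 78 measured mitochondrial ribosomal protein genes had a median of 0.03, with 0 past the rule in either direction and 36 below 0. The fewer genes that passed a filter of 100 RPKM had a median of -0.29. Among the 78 genes Mrpl1 measured 9.50 RPKM in Δ/Δ and 4.51 RPKM in C/C. It was just short of the rule and past it after centring (log2 ratio 1.09). Protein-coding genes outside the set that reached 1000 RPKM had a median of -0.13 over 36 genes, with 2 higher and 3 lower, and those that reached 100 RPKM had -0.03 over 839 genes.

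**Figure D4:**
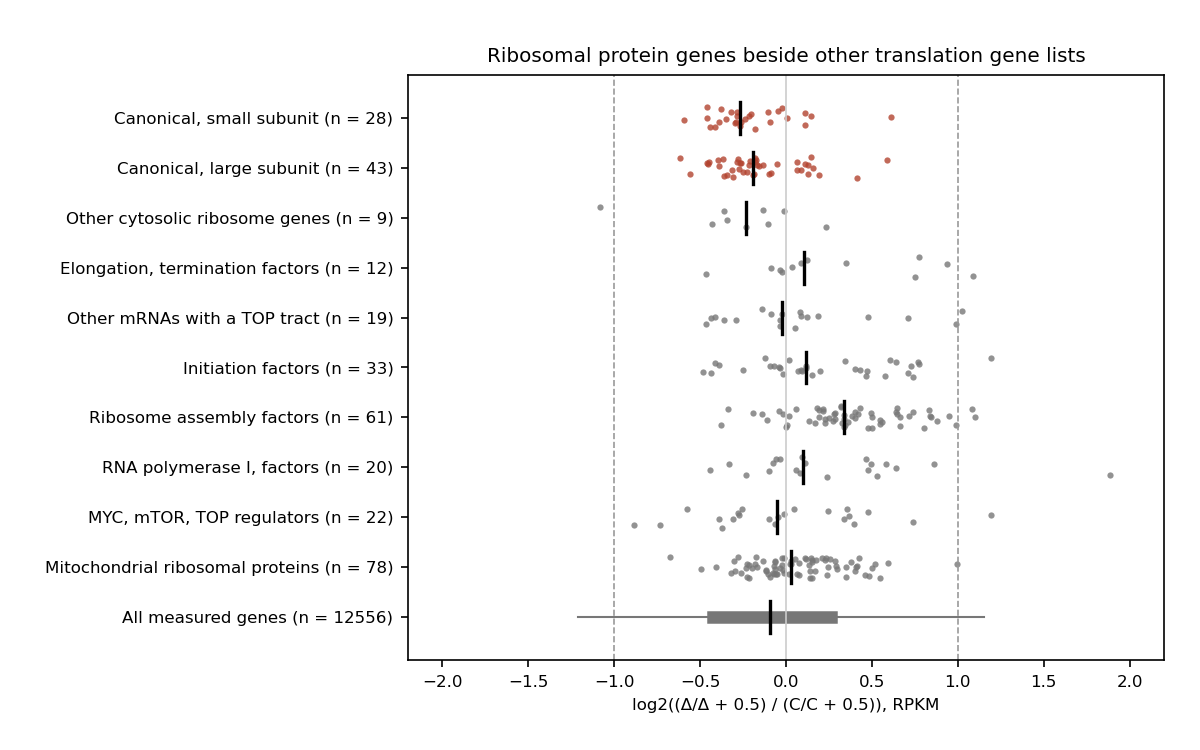
Log2 ratio (Δ/Δ over C/C, with 0.5 RPKM added to each) of canonical ribosomal protein genes (red, by subunit) and of other translation gene lists (grey), 1 point per measured gene, with black bars at the medians. The bottom row shows all 12556 measured genes from quartile to quartile (thick bar) and over the middle 90% (thin line), and dashed lines mark the 2-fold size rule. The red points lie mostly between -0.6 and 0.2, and 53 of the 61 ribosome assembly factors lie right of 0.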

How the data were processed

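RNA-seq of 1 Setdb1 Δ/Δ and 1 Setdb1 C/C library was used, 101 bp paired-end reads per the labels. The authors deposited RPKM values of 93615 Ensembl transcripts, rounded to 3 decimals; the columns Del and Wt were read as Δ/Δ and C/C. The submitters' processing notes name TopHat2 2.0.9, bedtools, mm9 and mm10, without roles; no source used here gives the annotation, strand setting or treatment of shared reads.

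Identifiers were matched to GENCODE M21 (GRCm38) for 89571 transcripts (95.7%), giving 36980 symbols. Depth was recovered from RPKM times exonic length, with 96.2% (Δ/Δ) and 97.0% (C/C) of low values within 0.1 of a whole read, after tests on simulated data. Counting intervals are exact 95% Poisson intervals with 2 reads as 1 fragment. Python 3.11.15, pandas 2.3.3 and scipy 1.17.1 were used.

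Members, lists and the size rule were chosen with earlier results of these data known. Genes described in full were the 6 highest and lowest ratios and levels, genes of named roles, and the 2 highest and lowest of each list; genes outside this rule were named after their values were seen. Promoter sequences are from RefSeq; protein sequences were not used here. Some genes that this rule names are not reported here.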

Additional observations from a re-analysis of the deposited data

How the results depend on the processing

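The median log2 ratio of the 71 ribosomal protein genes (-0.22) was -0.12 after centring on all measured genes, -0.15 at a common RPKM sum, -0.13 at that sum without the 20 most abundant genes, -0.29 for the genes with no named pseudogene, and -0.073 after centring within GC intervals, an alternative chosen after seeing the data. In the same order of scalings the small subunit median (-0.27) was -0.17, -0.20, -0.18 and -0.13, and the large subunit median (-0.19) was -0.10, -0.12, -0.11 and -0.033. With protein-coding transcripts alone these were -0.28 and -0.21, and -0.28 for the small subunit with the longest one. The gap to the median of all measured genes (-0.12) was -0.22 with no filter on low values and -0.15 with a filter of 100 RPKM, with protein-coding transcripts or with the longest ones. With no filter the median of the 71 genes stayed at -0.22, while that of all genes moved from -0.09 to 0.0. The cause of the other shifts was not tested. Under every alternative run the 3 medians stayed below 0, and 46 to 56 of 71 genes were below 0. The 1.5-fold rule called 2 genes higher and 2 lower, against 0 and 0 at 2-fold. Both lower calls at 1.5-fold ended after centring on all measured genes (Rpl13a -0.52, Rps19 -0.50), at either common sum and after GC centring. The Rps2 call ended with its protein-coding transcript (0.46) or the sum over transcripts (0.48). The Rpl29 call ended with its longest transcript (0.57), that sum (0.58) or 1 RPKM added to each value in place of 0.5 (0.5844). Over the alternatives the list medians ran from -0.02 to 0.28 for elongation and termination factors and 0.07 to 0.27 for initiation factors. They ran from -0.02 to 0.07 for other TOP mRNAs and 0.28 to 0.43 for assembly factors. For RNA polymerase I they ran from 0.10 to 0.31, apart from -0.33 at a filter of 100 RPKM, which is Ubtf alone. MYC and mTOR regulators ran from -0.06 to 0.25 and mitochondrial ribosomal proteins from -0.29 to 0.13. Their ends at 0.25 and -0.29 came from the same filter, over fewer genes. No paired analysis was possible because each group has 1 library. Depth limits little here; the missing replicates do.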
